A study of Mus musculus with 12 samples.

Results

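RKPG9 is a mouse embryonic stem (ES) cell line that is heterozygous for Rex1 (Rex1+/-), and its transcriptome was compared with that of the wild-type ES cell line EB5. The members were taken by title, as the 3 arrays of RKPG9 and the 3 arrays of EB5, which make 6 of the 12 arrays of the series. In RKPG9 the beginning of the Rex1 open reading frame in one allele was replaced by pacEGFP, a fusion of a puromycin resistance gene and a green fluorescent protein gene, and in EB5 both alleles are intact. The remaining arrays, 3 each, hold the Rex1-/- lines HP3 and HP4. The study derived such lines from heterozygous cells, either RKPG9 under high-dose puromycin or cells given another targeting vector, and the route to HP3 and HP4 is not given in the sources used here. RKPG9 is a single targeted clone, and nothing in the design separates the Rex1 genotype from other differences of that clone. The study kept its ES cells in the presence of LIF without feeder cells. Each array set Cy3-labelled RNA of 1 line beside a Universal Mouse Reference RNA, a pool from cultured mouse cell lines labelled with Cy5, and each level below is the log2 ratio of line to reference at one probe. Such a ratio ranks lines for a gene but does not rank genes against each other.

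Rex1, whose gene symbol is Zfp42, is a zinc-finger protein related to Yy1, and its transcript is a classical marker of undifferentiated ES cells. ES cells are kept undifferentiated by a network around Oct3/4 (Pou5f1), Sox2 and Nanog, and they leave that state through an epiblast-like phase toward the germ layers. A heterozygous line with 1 intact allele is an intermediate between wild type and knockout in genotype, and the comparison asks how far its transcriptome stands from the wild type.

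The arrays of both lines were not read alike. The share of the 20280 gene probes well above background in Cy3 was 92.2 to 94.5% per array for EB5 and 89.3 to 89.9% for RKPG9. Correlations between arrays of 1 line were 0.98 to 0.99 over probes. Spots were extracted from the 3 EB5 scans in one session, with a global background adjustment, and from the RKPG9, HP3 and HP4 scans in another, without it. For RKPG9 against EB5, line and session cannot be told apart, and values of RKPG9 against HP3 and HP4, read in 1 session, are given beside many of the results. Those comparisons share the RKPG9 arrays, so they are not independent of it. Where an EB5 level rests on 1 usable array, its spread in the fit was assumed to be that of the other arrays. Whether the 3 arrays of a line stand for separate cultures is not given, so the p-values reflect only array-to-array spread, possibly of technical origin.

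Of 20240 probes with a usable value in both lines, 31 were higher in RKPG9 (0.153%) and 75 were lower (0.371%) at an adjusted p under 0.05 in limma and a change of more than 2-fold. All 106 had arrays that did not overlap between the lines, as did 49.3% of all probes. The 31 included 20 probes with a gene symbol, and the 75 included 49, which stand for 47 genes. By adjusted p alone, 12.6% of the probes were higher and 21.6% lower, so small differences were common. Over 7132 genes, each read at its brightest probe, the median difference was -0.07, with 1005 genes that rose (14.1%) and 2509 that fell (35.2%). Against HP3, 15.9% of genes were higher and 17.9% lower, and against HP4 24.6% and 26.9%, and the counts of each gene list below stand beside these shares. The proportion of higher probes depended on the scaling, with 18 higher and 82 lower under median centring in place of loess, 37 and 53 from Cy3 signals without the reference, and 281 and 320 in the authors' table.

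Zfp42 itself checked nothing, because the sources used here do not place its probes relative to the replaced part. Its log2 difference between RKPG9 and EB5 was 0.05 ± 0.09 (standard error) at probe A_65_P04537 and 0.07 ± 0.08 at A_65_P04151, and neither passed the test (adjusted p = 0.71 and 0.54). Without background subtraction the first was 0.19 and passed the adjusted p.

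The genes of mouse chromosome 8, which carries Zfp42, had a higher median in RKPG9 than those of any other chromosome. This chromosome was chosen after its values were seen. The median difference of its 351 genes was 0.18 against EB5, whereas the medians of the other 19 chromosomes measured lay between -0.11 and -0.04. On chromosome 8, 206 genes rose (58.7%) and 36 fell (10.3%), while 740 of 6341 genes elsewhere rose (11.7%) and 2329 fell (36.7%). On the arrays the chromosome 8 median was 0.16, 0.16 and 0.16 in RKPG9 and -0.02, -0.02 and -0.02 in EB5. The median of the remaining chromosomes was -0.08 on each RKPG9 array and -0.04, -0.03 and -0.04 on the EB5 arrays, so RKPG9 was above EB5 on chromosome 8 and slightly below it elsewhere.

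The same elevation stood against the knockout lines, which were read in the session of RKPG9. The chromosome 8 median was 0.29 above HP3, where the other chromosomes lay between -0.04 and 0.02, and 0.26 above HP4, where they lay between -0.04 and 0.01. The HP3 arrays gave -0.08, -0.09 and -0.08 and the HP4 arrays -0.11, -0.12 and -0.09, close to the remaining chromosomes there. Against HP3, 227 of the 351 genes rose (64.7%) and 18 fell, and against HP4 223 rose (63.5%) and 33 fell, beside 15.9% and 24.6% of all genes that rose. As a fold the medians came to 1.14 over EB5, 1.22 over HP3 and 1.2 over HP4. In the reference channel the chromosome 8 median differed by 0.12 between RKPG9 and EB5 arrays and that of the remaining chromosomes by 0.09.

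**Figure D1:**
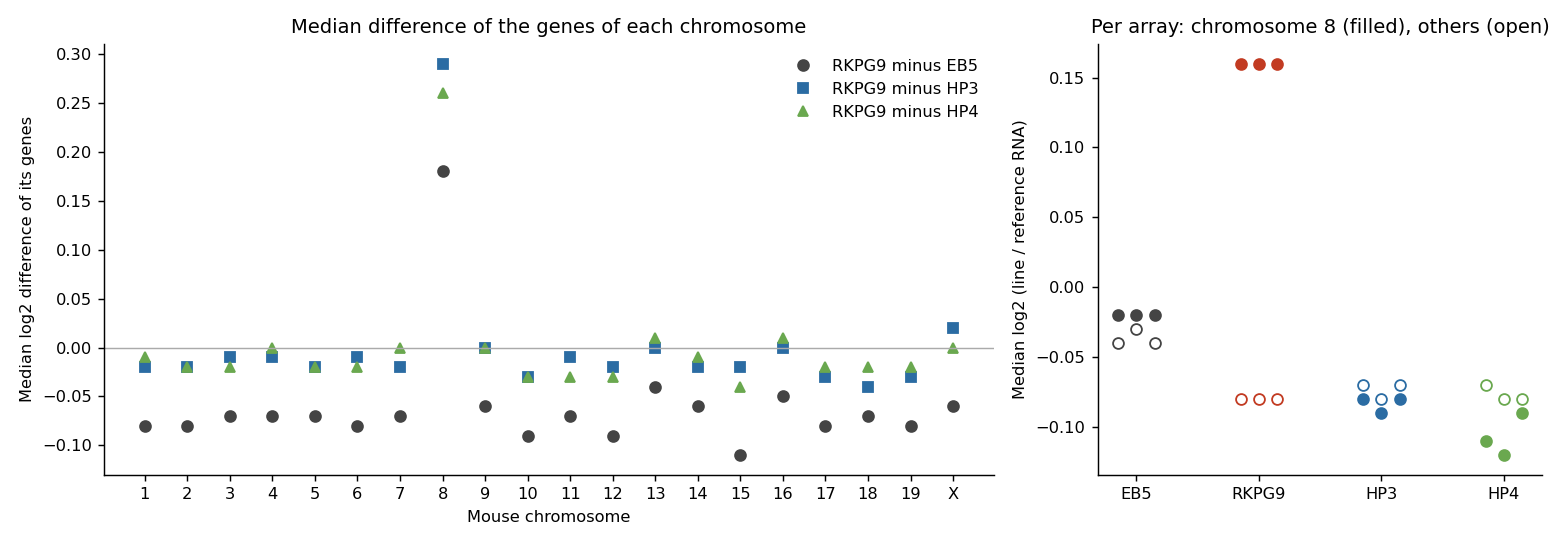
Left, median log2 difference of the genes of each mouse chromosome for RKPG9 minus EB5 (circles), HP3 (squares) and HP4 (triangles). Right, median log2 ratio of line to reference per array for chromosome 8 (filled) and for the other chromosomes together (open). Chromosome 8 stood at 0.18, 0.29 and 0.26 in the 3 comparisons, above every other chromosome.

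The elevation ran along the whole chromosome. Cut into 10 consecutive blocks of 35 or 36 genes, chromosome 8 had block medians of 0.06 to 0.29 against EB5, 0.18 to 0.38 against HP3 and 0.15 to 0.37 against HP4. The block of the lowest median against EB5 was the last one, which ends at Itgb1. It also grew with signal. With all genes split into 4 equal classes from dim to bright, the chromosome 8 median against EB5 was 0.06, 0.14, 0.22 and 0.28, while elsewhere it was -0.03, -0.06, -0.08 and -0.12. The offset of 50 added to both channels compresses the ratios of dim spots by construction, so sizes are not comparable between the classes. Copy number was not measured here.

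Several enzymes and regulators on chromosome 8 were among the genes higher in RKPG9. Gsr, the reductase that regenerates glutathione, read 1.12, 1.09 and 1.07 on the RKPG9 arrays against 0.19 and 0.20 on the 2 usable EB5 arrays, 0.11, 0.08 and 0.07 in HP3 and -0.17, -0.16 and -0.20 in HP4. The RKPG9 arrays lay above all others, by 0.90 ± 0.03 against EB5 (adjusted p = 1.8e-08). Cox4i1, a subunit of cytochrome c oxidase, read 0.28 on each RKPG9 array and -0.21, -0.13 and -0.17 in EB5, a rise of 0.45 ± 0.03, and it was 0.71 above HP3 and 0.75 above HP4. Nqo1, a quinone reductase, rose by 0.47 and was 1.02 above HP3 and 0.88 above HP4. Msmo1 and Mvd, which act in cholesterol synthesis, rose by 0.41 and 0.39, and Smad1, a transducer of BMP signals, rose by 0.44. Klf2, a transcription factor of the naive pluripotent state, read 4.23, 4.21 and 4.26 in RKPG9 and 3.60 on the only usable EB5 array. Its reference signal was higher by 0.70 on the RKPG9 arrays and Cy3 alone gave 1.33, and it was 0.31 above HP3 and 0.36 above HP4. Bst2, an antiviral membrane protein, fell by 0.94 and also stood 0.76 below HP3 and 0.64 below HP4. Dusp4, a MAP kinase phosphatase, fell by 0.66 against EB5 but was 0.24 above HP3 and 0.63 above HP4. Of the 20 named genes that rose more than 2-fold, Hhip, Sall1, Slc12a4 and Acsl1 lie on chromosome 8, and without its genes 27 and 74 probes remained past both thresholds.

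Hedgehog target genes were among the largest rises in RKPG9. Hedgehog ligands bind the receptor Ptch1 and so release Smoothened, which turns Gli proteins into activators. Gli1, Ptch1 and Hhip, which binds the ligands, are transcribed in response. Gli1 read 3.99, 3.95 and 4.03 in RKPG9, 2.22, 2.13 and 2.15 in EB5, 3.11, 3.25 and 3.10 in HP3 and 2.78, 3.03 and 2.95 in HP4. Ptch1 read 3.37, 3.38 and 3.34 in RKPG9, 1.76, 1.75 and 1.77 in EB5, 2.59, 2.66 and 2.64 in HP3 and 2.09, 2.18 and 2.07 in HP4. Hhip read 1.68, 1.56 and 1.79 in RKPG9, 0.07, 0.18 and 0.00 in EB5, 0.26, 0.56 and 0.61 in HP3 and 0.18, 0.32 and 0.33 in HP4. In all 3 genes every RKPG9 array stood above every array of the other lines, and for Gli1 and Ptch1 the knockout lines lay between RKPG9 and EB5.

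Against EB5, Gli1 rose by 1.82 ± 0.06 (3.54-fold, adjusted p = 2.1e-09), Ptch1 by 1.61 ± 0.04 (adjusted p = 2.1e-10) and Hhip by 1.59 ± 0.09 (adjusted p = 1.6e-07). Within the session Gli1 was 0.84 above HP3 and 1.07 above HP4, and Ptch1 0.73 and 1.25, each past the test. The Hhip spot was dim, with Cy3 signals of 452 to 462 in EB5 and 534 to 551 in RKPG9, and its difference to EB5 was 0.37 when no background was subtracted and 3.29 with the scanner's processed signals. Its reference signal was well above background on 0 of 3 HP3 arrays and 1 of 3 HP4 arrays, so no size is given against those lines. The reference signal of Gli1 also differed between the sets of arrays, by 0.54 (adjusted p = 0.0023), although in the Cy3 channel alone Gli1 rose by 1.96. Of the 10 measured genes of the pathway, 3 rose, 1 fell and 6 did not pass, with a median of -0.03. The ligand genes Shh (-0.03) and Dhh (-0.13), the coreceptor gene Boc (-0.04), the repressor gene Sufu (0.03) and the effector gene Gli3 (-0.07) were among those that did not pass. Gas1, which encodes a coreceptor, fell by 0.28, but read 0.06 in the Cy3 channel alone.

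The other large rises covered unrelated functions. Ly75, an endocytic receptor known from dendritic cells, read 1.73, 1.67 and 1.71 in RKPG9 and -0.14, -0.08 and -0.17 in EB5, and rose by 1.83 ± 0.05 (adjusted p = 5.0e-10). It was 1.54 above HP3, whose arrays read 0.09, 0.21 and 0.20, and 1.94 above HP4, whose arrays read -0.33, -0.22 and -0.17. Napsa, an aspartic protease, rose by 1.63 and was 1.06 above HP3 and 1.07 above HP4. Ica1, an islet cell autoantigen, rose by 1.26 and was 1.09 above HP3 and 1.54 above HP4. Slc66a2 read 0.64, 0.59 and 0.58 in RKPG9 and between -0.50 and -0.39 on all other arrays. Sult6b1, a sulfotransferase, rose by 1.33 at a dim spot, where the value ranged from 0.31 to 3.04 over the settings tried. Acsl1, which activates long-chain fatty acids, read 0.75, 0.78 and 0.74 in RKPG9 and between -0.34 and -0.17 on every other array, and rose by 1.09 ± 0.04. For these genes the RKPG9 arrays stood apart from all 3 other lines.

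Some other rises were shared in part with HP3. Past both thresholds HP4 had 1 probe higher than EB5, and it had no gene symbol. Values of the genes in this paragraph against HP4 are not given here. Sall1, a zinc-finger factor of stem cells and kidney, rose by 1.34, Tcl1, a coactivator of Akt that is high in ES cells, by 1.25, Hopx, an atypical homeodomain protein, by 1.31, and Cobl, an actin nucleator, by 1.34 at a spot whose reference signal was higher by 0.51. They were above HP3 by 0.63, 0.41, 0.81 and 0.59. Trh, the thyrotropin-releasing hormone precursor, read 5.24, 5.23 and 5.23 in RKPG9 and 4.22, 4.08 and 4.37 in EB5, but its difference to HP3 was 0.11 and did not pass (adjusted p = 0.53). Mest, an imprinted hydrolase gene, rose by 1.28, and its signal in the reference channel was also higher on the RKPG9 arrays, by 1.14, and in Cy3 alone Mest rose by 1.88. Suv39h1, a histone methyltransferase, rose by 1.03 at one probe and fell by 0.27 at another. 

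**Figure D2:**
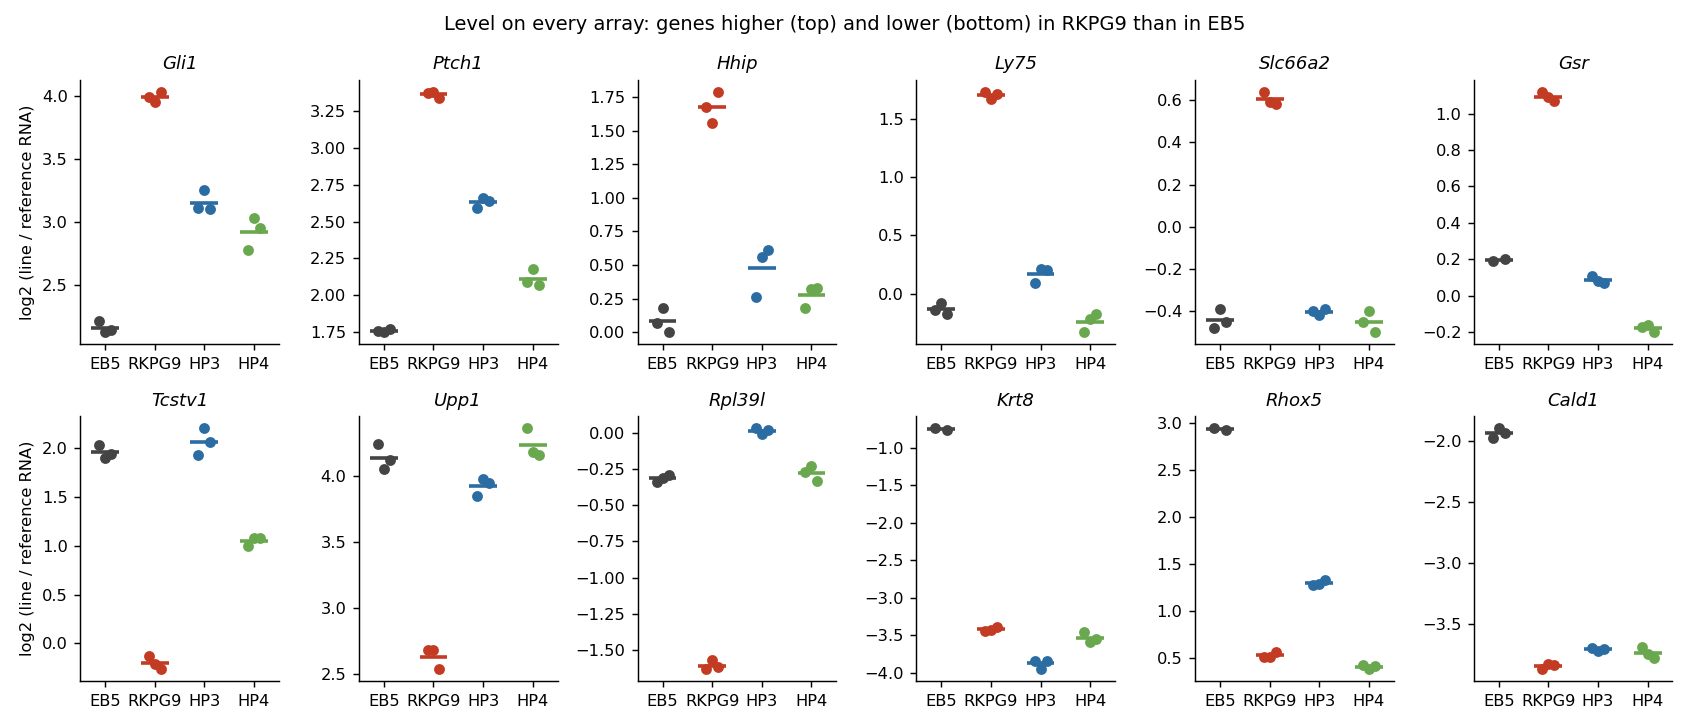
Log2 ratio of line to reference RNA on each array (points) with the mean of the line (bars) for 6 genes higher and 6 genes lower in RKPG9 than in EB5, with a vertical scale of its own in each panel. Gli1, Ptch1 and Hhip were highest in RKPG9, Tcstv1, Upp1 and Rpl39l were lowest there, and Krt8, Rhox5 and Cald1 were below EB5 in RKPG9, HP3 and HP4.

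Some of the largest falls set RKPG9 apart from every other line. Tcstv1, a gene of the two-cell-embryo-like state that a few cells of ES cultures enter, read -0.13, -0.21 and -0.26 in RKPG9, 2.03, 1.90 and 1.94 in EB5, 1.93, 2.20 and 2.06 in HP3 and 1.00, 1.08 and 1.08 in HP4. It fell by 2.15 ± 0.06 against EB5 (4.45-fold, adjusted p = 9.4e-10) and stood 2.26 below HP3 and 1.25 below HP4. RNA of a bulk culture cannot tell fewer cells of a type from less RNA in each cell. Tcstv1 has close relatives, and its probe may read more than 1 of them. Usp17la, the other measured gene of that list, fell by 0.67.

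Upp1, a uridine phosphorylase, read 2.68, 2.68 and 2.54 in RKPG9 and 4.24, 4.05 and 4.12 in EB5, with 3.85 to 3.98 in HP3 and 4.16 to 4.36 in HP4. It fell by 1.50 ± 0.07 and stood 1.30 below HP3 and 1.60 below HP4. Rpl39l, a paralog of a ribosomal protein gene best known from testis, read -1.63, -1.57 and -1.62 in RKPG9 and between -0.34 and 0.03 on the other 9 arrays, a fall of 1.29 ± 0.03. Kif21a, a kinesin, fell by 1.03 and stood 1.21 and 1.28 below HP3 and HP4, and Ddit4, an inhibitor of mTORC1, fell by 1.01 and stood 0.85 and 0.83 below them. Gpx4, the peroxidase that reduces lipid hydroperoxides, read 0.13, 0.09 and 0.13 in RKPG9 and 1.18, 1.24 and 1.18 in EB5, and the knockout lines lay between, at 0.73 to 0.93. Trpc2 fell by 1.47 at its brightest probe, while its other probes gave -0.18, which did not pass, and 0.22.

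Dnmt3b, a de novo DNA methyltransferase that rises on the way to the epiblast, was lower in RKPG9 at both probes. At the brighter probe it read 3.75, 3.91 and 3.98 in RKPG9, 4.57, 4.50 and 4.76 in EB5, 5.07, 4.98 and 4.87 in HP3 and 5.17, 5.00 and 4.78 in HP4. It fell by 0.73 ± 0.10 against EB5 (adjusted p = 0.00015) and stood 1.09 below HP3 and 1.10 below HP4. Of 11 measured genes of the passage from naive to primed epiblast, 7 fell, 1 rose and 3 did not pass, with a median of -0.29. Dnmt3a fell by 0.31 and Tead2, a partner of YAP, by 0.50, while Fgf5, the marker of the primed state, was -0.03 and did not pass, and the homeobox gene Otx2 rose by 0.24. Against HP3 7 of the 11 were lower and none was higher, Otx2 among them at -0.70.

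The pluripotency genes leaned the other way. Of 29 measured, 10 rose, 4 fell and 15 did not pass, with a median of 0.14 beside -0.07 for all genes. Nanog read 2.46, 2.42 and 2.49 in RKPG9 and 2.26, 2.00 and 1.97 in EB5, and rose by 0.38, but its reference signal was lower by 0.34 on the RKPG9 arrays and Nanog was -0.11 in Cy3 alone. Esrrb, an orphan nuclear receptor of the network, rose by 0.47 but did not pass in Cy3 alone (0.25), while Nr5a2, another orphan receptor, rose by 0.61. Pou5f1 gave 0.31 with 1 usable EB5 array and did not pass (adjusted p = 0.098), and Fgf4 (0.02), Utf1 (-0.06) and Dppa5a (0.05) did not pass either. Klf4 fell by 0.29 and Myc by 0.15, although Myc was 0.17 in the Cy3 channel alone. Against HP3 the list had a median of 0.01 with 6 genes higher and 5 lower, and against HP4 0.31 with 17 higher and 4 lower.

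The lists of markers of other cell types are short, and their counts stand beside 14.1% of all genes that rose and 35.2% that fell. Of 6 trophoblast markers 2 fell and none rose, of 3 mesoderm markers 1 fell, and both neuroectoderm markers measured fell, Pax6 by 0.30 and Nes by 0.18. Pax6 did not pass without EB5 replicate 1, EB5 replicate 3 or RKPG9 replicate 2, nor Nes without EB5 replicate 2 or RKPG9 replicate 1, and neither passed in Cy3 alone. Of the 8 extraembryonic endoderm markers, 1 rose, 1 fell and 6 did not pass, and Afp (-0.10), Sox17 (0.05) and Gata6 (-0.22) were among the latter. Foxa2, a forkhead factor of endoderm, read 0.64, 0.48 and 0.55 in RKPG9 and -0.21, -0.21 and -0.10 in EB5. It was well above background on all 3 RKPG9 arrays and on none of EB5, so only a bound holds, at least 1.6-fold higher (adjusted p = 3.3e-06), and its Cy3 signals of 485 to 493 against 449 to 461 were dim in both. It was not well above background on any HP3 or HP4 array, and its difference to EB5 did not pass in the authors' table. Lama1, a laminin chain of basement membranes, rose by 0.68 and Apoe, a lipid carrier, by 0.65, while Sparc, a matrix glycoprotein, fell by 1.05. The mesoderm marker T fell by 0.20, at a spot whose reference signal was lower by 1.08 on the RKPG9 arrays.

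Genes of the actin and contractile cytoskeleton had the lowest median of the lists with 7 or more measured members. Of 22 measured, 18 fell, none rose and 4 did not pass, with a median of -0.63 beside -0.07 over all genes, of which 35.2% fell. Cald1, an actin-binding regulator of contraction, read -3.87, -3.83 and -3.84 in RKPG9 and -1.98, -1.90 and -1.94 in EB5, and fell by 1.91 ± 0.03 (adjusted p = 5.5e-11). A second Cald1 probe fell by 1.75, and another gave -0.05. Gsn, which severs actin filaments, fell by 1.75, the LIM protein gene Fhl2 by 1.58 and the actin gene Acta2 by 0.97. Vim, a filament protein of mesenchymal cells, fell by 1.51, but its reference spot was saturated on all arrays of both lines, so its ratio is not exact. Tpm1 (-0.06), Pdlim1 (-0.03), Myh9 (0.05) and Fhl1 (0.13) did not pass.

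Acta1, the skeletal muscle actin, Cnn2, a calponin, and Fhl2 carry a CArG box, the site bound by serum response factor (Srf), in the 250 bases before a transcription start, and these windows are shown because 6 of 21 contractile genes with a promoter held the box. They are RefSeq windows on GRCm38.p6, at chr8:123894776-123895025 on the minus strand for Acta1, chr10:79988350-79988599 on the plus strand for Cnn2 and chr1:43163962-43164211 on the minus strand for Fhl2, written 5′ to 3′ on the strand of the gene with the box in capitals.
Acta1: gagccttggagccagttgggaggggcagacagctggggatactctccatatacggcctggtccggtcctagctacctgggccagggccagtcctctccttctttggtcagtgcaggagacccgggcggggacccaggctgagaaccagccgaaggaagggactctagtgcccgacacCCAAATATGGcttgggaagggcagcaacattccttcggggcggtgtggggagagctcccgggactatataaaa
Cnn2: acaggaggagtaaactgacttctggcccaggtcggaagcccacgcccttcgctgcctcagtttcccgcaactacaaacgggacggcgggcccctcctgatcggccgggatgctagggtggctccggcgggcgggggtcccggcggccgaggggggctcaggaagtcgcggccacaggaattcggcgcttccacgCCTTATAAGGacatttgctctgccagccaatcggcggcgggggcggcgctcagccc
Fhl2: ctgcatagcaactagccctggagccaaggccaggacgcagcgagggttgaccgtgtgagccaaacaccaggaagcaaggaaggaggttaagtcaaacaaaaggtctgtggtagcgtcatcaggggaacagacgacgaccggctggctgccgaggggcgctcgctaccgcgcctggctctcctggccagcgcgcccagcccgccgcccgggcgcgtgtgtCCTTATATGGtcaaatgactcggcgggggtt
In Acta1 63 bases lie between box and start, in Cnn2 46 and in Fhl2 21, and the window of another Fhl2 start also holds a box. The box, searched by its name on both strands, was in 1.63% of all 32851 windows and in 90 of 5379 measured genes with a promoter (1.67%). The other holders were Myl6, Vcl and Fhl1, and of the 6 genes 5 fell and Fhl1 did not pass. In the whole contractile list, which holds these 6 genes, 18 of 22 fell. Whether the box goes with the falls was not tested. A match describes the letters of the window and not a bound site.

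Acta1 read -0.83, -0.86 and -0.74 in RKPG9 and 0.69 and 0.84 on the 2 usable EB5 arrays, and fell by 1.58 ± 0.08. In HP3 it read -0.98, -1.23 and -1.20, and in HP4 -0.85, -0.96 and -0.98, so the difference within the session was 0.32 to HP3 and 0.12 to HP4, where it did not pass. Cnn2 read -1.49, -1.53 and -1.58 in RKPG9, 0.05, 0.12 and 0.03 in EB5, -0.49, -0.56 and -0.47 in HP3 and -0.42, -0.60 and -0.60 in HP4, and thus stood 1.03 below HP3 and 0.99 below HP4. Fhl2 read -3.41, -3.46 and -3.40 in RKPG9 and -3.41, -3.44 and -3.46 in HP3, which overlapped, against -1.89, -1.76 and -1.87 in EB5. The list as a whole had a median of -0.06 against HP3 and -0.13 against HP4, with 7 of the 22 lower and 4 higher than in HP3 and 12 lower and 5 higher than in HP4, beside 17.9% and 26.9% of all genes that were lower.

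Targets of serum response factor and of YAP, which overlap in function with the contractile genes, also fell, 17 of 21 measured, with 2 that rose, 2 that did not pass and a median of -0.55. Its median was -0.05 against HP3, with 4 higher and 4 lower, and -0.37 against HP4, with 4 higher and 15 lower. Of the 12 with a promoter window, 1 (Srf) held a CArG box. Srf itself fell by 0.78, F3, the tissue factor of coagulation, by 1.56 at one probe and 0.99 at another, and Tgfb2 by 0.78. Thbs1, a matrix protein, rested on 1 usable EB5 array. Ccn2, a textbook YAP target, rose by 0.19 and Ier2, an immediate early gene, by 0.27. Egr1 fell by 0.29 and stood 0.90 below HP3 and 1.10 below HP4.

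The list of fibroblast and feeder genes moved with these groups: of 18 measured, 10 fell, none rose and 8 did not pass, with a median of -0.27. It had 2 lower than in HP3 (median -0.10) and 11 lower than in HP4 (median -0.30). Of its markers only Col1a2 and Twist1 were measured, and Col1a2 fell by 0.41, with Cy3 signals of 552 to 567 in EB5 and 556 to 571 in RKPG9, and was 0.10 in the Cy3 channel alone. The part of such cells in the lower contractile genes was not tested.

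Krt8 and Krt18, the keratin pair of simple epithelia, fell furthest of all named genes. In the list of 18 keratin and junction genes there were 11 falls and 1 rise, 6 did not pass, and the median was -0.38. Krt8 read -3.44, -3.43 and -3.39 in RKPG9 and -0.74 and -0.76 on the usable EB5 arrays, and the HP3 arrays read lower still, at -3.84, -3.95 and -3.84. Its partner keratin Krt18 was 0.08 from HP3 and 0.42 below HP4. Krt7, a further simple keratin, fell by 1.20 and the desmosome protein gene Dsp by 1.14, at a spot whose reference signal was also lower, by 0.58. Epcam, an adhesion molecule of epithelia, read 0.71, 0.65 and 0.64 in RKPG9 and 1.38 on the only usable EB5 array, was -0.10 in Cy3 alone and stood 0.71 below HP3 and 0.80 below HP4, and Cdh1, the cadherin of ES cell colonies, was 0.08 and did not pass.

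Rhox5, an X-linked homeobox gene of placenta and germ line, read 0.51, 0.51 and 0.56 in RKPG9 and 2.94 and 2.92 on the usable EB5 arrays, and fell by 2.40 ± 0.04 (5.3-fold, adjusted p = 5.5e-11). It read 1.27, 1.28 and 1.33 in HP3 and 0.42, 0.38 and 0.41 in HP4, so it stood 0.77 below HP3 and 0.12 above HP4. Its neighbour Rhox6 gave -0.24 against EB5, a value that passed only narrowly (adjusted p = 0.041) and did not pass when any 1 of the 6 arrays was left out, at a spot whose reference signal was lower by 0.65, yet it was 0.93 above HP3 and 1.54 above HP4.

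Annexins bind membranes in the presence of calcium, and S100 proteins are small calcium-binding partners of them. Of 14 measured, 9 fell, none rose and 5 did not pass, with a median of -0.38. Within the session the list had 6 higher and 1 lower than in HP3 (median 0.01) and 5 higher and 4 lower than in HP4 (median 0.07). Anxa1 fell by 1.87 and Anxa5 by 1.07. Anxa3 read -4.07, -4.04 and -4.08 in RKPG9, below EB5 but above HP3 and HP4, where it lay between -5.37 and -5.02. S100a6 read -2.95, -3.03 and -3.09 in RKPG9, did not differ from EB5 by the test (0.11, adjusted p = 0.24) and was 1.68 above HP3 and 1.40 above HP4. In Anxa3 and S100a6 RKPG9 was nearer to the wild type than the knockout lines were.

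Interferon and antigen presentation genes were lower in 13 of 18 cases, with 1 rise, 4 that did not pass and a median of -0.50. Against HP3 6 were lower and 4 higher (median -0.10), and against HP4 11 and 2 (median -0.39). Psmb8, a subunit of the immunoproteasome, fell by 1.37 and Psme2, of its activator, by 1.31, from -0.86, -0.78 and -0.78 in EB5 to -2.13, -2.11 and -2.12 in RKPG9. Irf1, a transcription factor of the response, fell by 0.84 and Tap1, a peptide transporter, by 0.72. Psme2 stood 0.62 below HP3 and 0.80 below HP4, and Irf1 0.63 and 0.86, so these genes were lowest in RKPG9. Ifitm3, an antiviral membrane protein, rose by 0.54, while Stat2, a transducer of interferon signals, was among those that did not pass (0.03).

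Among 17 imprinted genes there were 10 falls and 3 rises with a median of -0.20, and 4 did not pass. Against HP3 11 were lower and 3 higher (median -0.27), and against HP4 7 were lower and 5 higher (median -0.10). Cdkn1c, an inhibitor of cyclin-dependent kinases, read 1.71, 1.73 and 1.80 in RKPG9, 2.93, 2.88 and 2.99 in EB5, 2.77, 2.84 and 2.85 in HP3 and 2.23, 2.68 and 2.57 in HP4, with no overlap. It fell by 1.19 ± 0.09 (adjusted p = 1.1e-06). Gnas, the stimulatory G protein subunit, fell by 0.82 and Peg3, a zinc-finger gene, by 0.66, and both stood lower than in HP3, by 0.50 and 0.57. Meg3, a maternally expressed noncoding RNA, rose by 0.24 against EB5 and stood 0.90 below HP3. Igf2, a fetal growth factor, fell by 0.58 and stood 0.90 above HP3, where 1 of 3 arrays was well above background. Germ line genes followed the fall, 8 of 12, with 4 that did not pass and a median of -0.22, led by Tdrkh of the piRNA pathway (-0.71) and Sycp2 of the synaptonemal complex (-0.66). Of the 12, 7 were lower and none higher than in HP3 (median -0.36), and 4 lower and 1 higher than in HP4 (median -0.07).

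Metabolic lists moved little, with some exceptions. Of 22 genes of cholesterol and fatty acid synthesis, 8 rose, 2 fell and 12 did not pass against EB5 (median 0.06), but 15 were higher and 1 lower than in HP3 (median 0.24) and 12 were higher and 1 lower than in HP4 (median 0.16). Scd2, a fatty acid desaturase, read -2.52, -2.45 and -2.45 in RKPG9 and -2.77, -2.71 and -2.74 in EB5, and stood 0.85 above HP3 and 0.74 above HP4. Of 21 glutathione and oxidative stress genes, 8 rose and 6 fell, with Gsr and Gpx4 at the ends. Of the 17 that lie off chromosome 8, 4 rose and 6 fell (median -0.01). Of the 20 cholesterol and fatty acid genes off chromosome 8, 6 rose and 2 fell (median 0.04). In the respiratory chain 4 of 44 genes rose, 23 fell and 17 did not pass (median -0.13). Of the 42 off chromosome 8, 2 rose and 23 fell (median -0.14). In contrast, 10 of the 44 were higher and 3 lower than in HP3 (median 0.02), and 18 higher and 8 lower than in HP4 (median 0.07). Of 38 cytosolic ribosomal protein genes none rose and 10 fell (median -0.10), and 10 were lower than in HP3 and 17 lower than in HP4 (medians -0.08 and -0.12).

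Genes of glycolysis and hypoxia fell in 14 of 23 cases and rose in 2 (median -0.18), among them Vegfa, a vascular growth factor, by 0.88 at its brightest probe and the glucose transporter gene Slc2a1 by 0.81. Of that list 8 were lower than in HP3 (median -0.09) and 13 lower than in HP4 (median -0.28). Of 10 hexosamine genes 3 rose and 2 fell. Against HP3 1 was higher and 1 lower (median 0.01), and against HP4 6 were higher and 1 lower (median 0.16). Gfpt2, an isoform of the entry enzyme, which rose most, did not differ from HP3 by the test (0.15, adjusted p = 0.27). Of 15 genes of p53 and stress response 12 fell (median -0.36) with Trp53 at 0.05, which did not pass, and of 10 heat shock genes 7 fell (median -0.23). Their medians were -0.06 and -0.20 against HP3 and -0.16 and -0.17 against HP4. In 35 cell cycle genes 8 rose and 13 fell, beside 14.1% and 35.2% of all genes. The median, -0.07, was that of all genes. Off chromosome 8, 6 of 33 rose and 13 fell. The mitotic genes Cdc20 (-0.40, but -0.03 in Cy3 alone, where it did not pass) and Plk1 (-0.25) fell, and the replication genes Rrm2 (0.39) and Cdt1 (0.28) rose. Of 13 reference genes 6 fell, 1 rose and 6 did not pass (median -0.09), with Gapdh at -0.03.

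**Figure D3:**
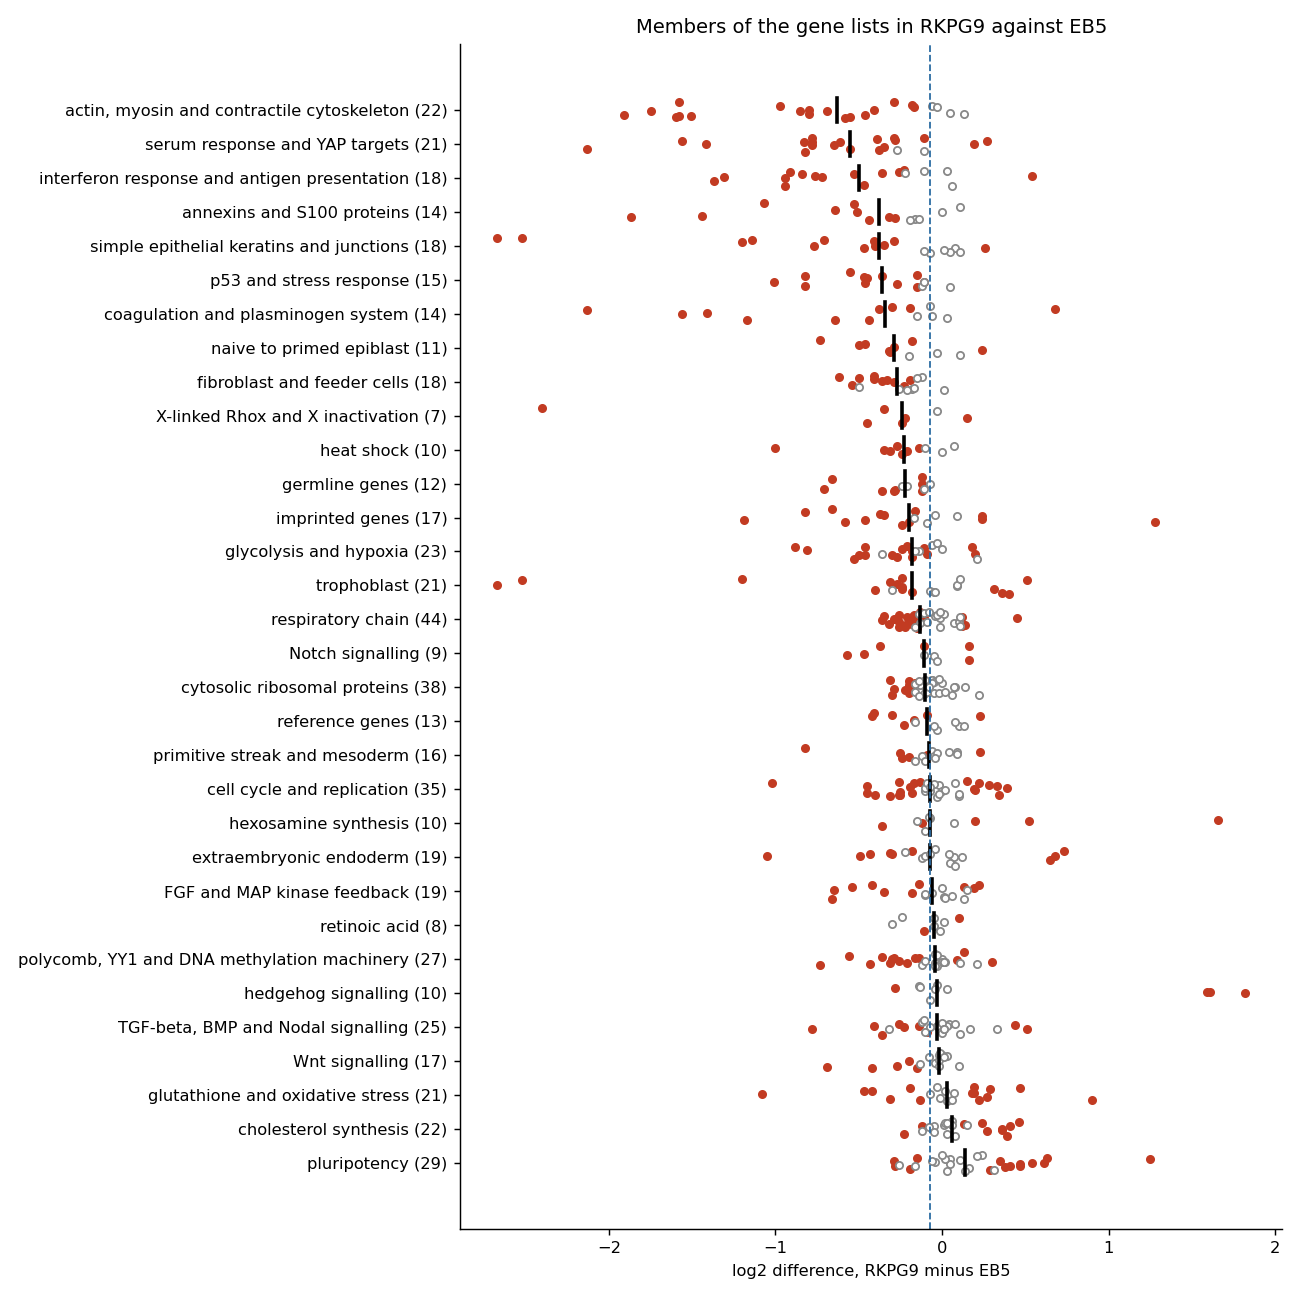
Log2 difference of RKPG9 minus EB5 of every measured gene in each list (number in brackets). Filled points passed an adjusted p of 0.05 in limma, black bars are list medians and the dashed line is the median of all genes, -0.07. Among these lists of 7 or more measured genes the contractile list lay lowest at -0.63 and the pluripotency list highest at 0.14.

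Set against HP3, RKPG9 had 27 probes higher (0.133%) and 30 lower (0.148%) of 20273, and against HP4 49 higher (0.242%) and 28 lower (0.138%) of 20278. Under median centring the counts were 25 and 16 for HP3 and 274 and 6 for HP4. From Cy3 signals without the reference they were 17 and 33 for HP3 and 34 and 36 for HP4. By adjusted p alone 10.1% of probes were higher and 12.6% lower than in HP3, and 19.2% higher and 20.8% lower than in HP4. Arrays did not overlap with those of HP3 at 39.8% of probes and with those of HP4 at 51.2%. The genes furthest above HP3 were S100a6, Ly75, Anxa3, Hhip and Ptgr1, an oxidoreductase of prostaglandins that stood 1.16 above HP3 and 1.19 above HP4 and 0.33 above EB5. Above HP4 stood Ly75, Rhox6, Ica1, Klhl13, a ubiquitin ligase adaptor, by 1.42 at its dimmer probe and 0.42 at the brighter one, and Hhip. The place of Hhip in both rankings is uncertain, because its reference signal was mostly not well above background in HP3 and HP4. The genes furthest below HP3 were Tcstv1, Rpl39l, the unnamed reading frame 4930447C04Rik, Upp1 and Kif21a, and below HP4 Upp1, Trpc2, Rpl39l, Kif21a and Tcstv1.

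**Figure D4:**
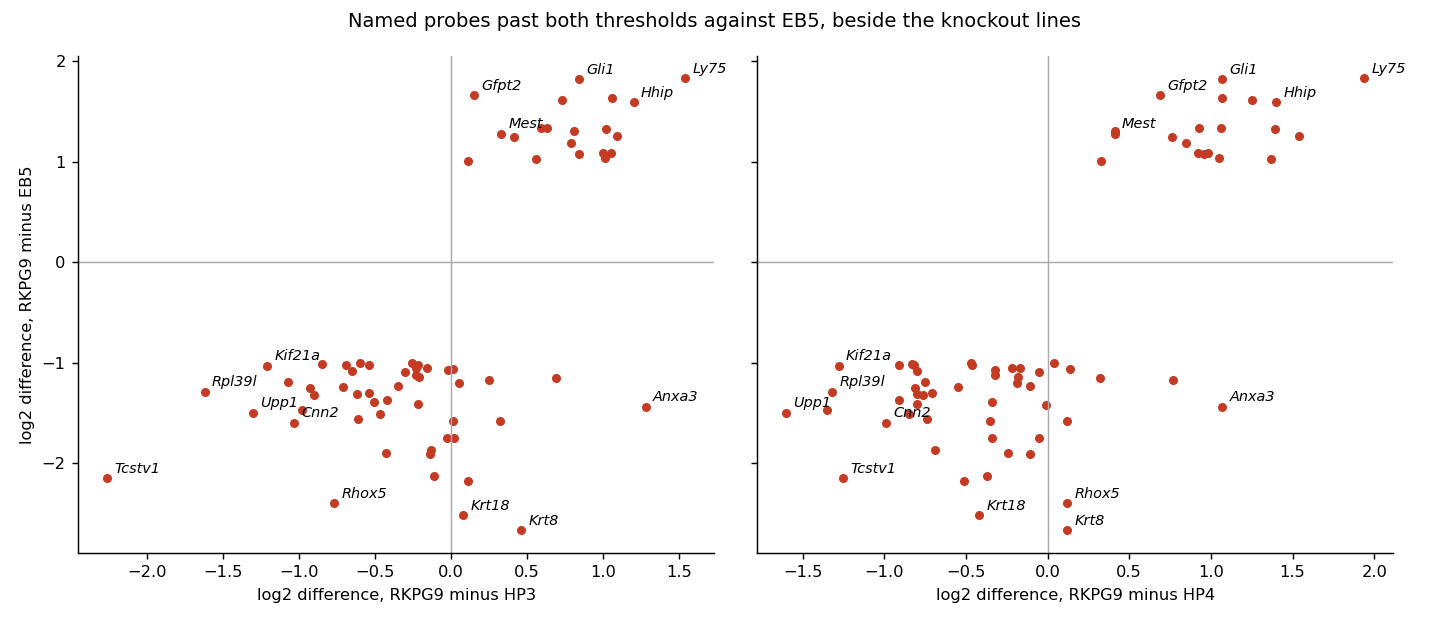
Log2 difference of RKPG9 minus EB5 (vertical) beside that of RKPG9 minus HP3 (left) and minus HP4 (right) for the 69 named probes past both thresholds against EB5; both axes hold the same RKPG9 arrays. Tcstv1, Upp1 and Rpl39l lie far to the left of 0 as well as below it, and Ly75 and Hhip far to the right and above. Krt8 and Krt18 lie nearer to 0 on the horizontal axis than on the vertical. The horizontal position of Hhip is uncertain, because its reference signal was mostly not well above background in HP3 and HP4.

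Mylpf, a myosin light chain, Lgals1, a galectin, and Dusp14, a phosphatase of MAP kinases, were proposed in the study as putative Rex1 targets. Its QPCR found them lower in knockout cells and restored by a Rex1 transgene. In RKPG9 these genes stood below EB5 by 0.58, 0.76 and 0.54 and above HP3 by 0.67, 0.42 and 0.20. Their levels thus lay between those of EB5 and HP3, and values against HP4 are not given here. Dusp14 was -0.09 in Cy3 alone, where it did not pass, and its reference signal was higher by 0.49 on the RKPG9 arrays.

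The same reference RNA on every array gave a comparison in which no line took part. Of 20240 probes, 2 were higher and 14 lower in Cy5 on RKPG9 arrays than on EB5 arrays past the same thresholds, against none (0 and 0) between RKPG9 and HP3 arrays in the same limma test, and the median over genes differed by 0.09.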

How the data were processed

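RNA of EB5, RKPG9, HP3 and HP4 was hybridised on 12 two-colour Agilent arrays, 3 per line, with no dye swap. The deposited intensities, per the file headers, are mean and background signals of each spot from Agilent Feature Extraction 7.5.1, without normalization. The deposited value table holds the authors' processed values on a log10 scale. About 91% of its values equal, within 0.01, the negative log10 ratio of the scanner file plus a level per probe, with array medians of 2.87 to 2.88, and how that level was set is not given in the sources used here.

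Spots marked as outliers (1824) were left out, unevenly between the lines. They numbered 351, 545 and 285 on the EB5 arrays and 98, 57 and 98 on the RKPG9 arrays. On each HP3 and HP4 array they numbered 28 to 104. Background was corrected by normexp with an offset of 50, and ratios were normalized by loess within arrays and averaged per probe in limma 3.58.1 (R 4.3.3). All 12 arrays entered 1 fit with 8 residual degrees of freedom. Calls needed a Benjamini-Hochberg adjusted p under 0.05 over all probes and, where stated, a change of more than 2-fold. Every adjusted p is from limma, and values after ± are standard errors of a log2 difference (n = 3 arrays per line unless fewer are named). The number of arrays limits the precision. "Rose" and "fell" mean past the adjusted p, against EB5 unless HP3 or HP4 is named. Of the 20280 gene probes 9222 had a symbol, of which 8669 were current, and the 9222 stood for 7155 genes. Each of the 7132 genes with a usable value in both lines was read in the lists at its brightest usable probe. On simulated data for this comparison all of 50 probes shifted by 1.2 on the log2 scale were called past both thresholds. Of those shifted by 0.5, 0 of 50 were called, and of the unshifted 0 of 20041. By the adjusted p alone 49 of 50 shifted by 0.5 and 8 unshifted passed. The simulated noise was independent between arrays and held no effect of session or culture, so it gives no error rate for the real comparison.

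Genes named were Zfp42, the 15 largest rises and falls past both thresholds, up to 4 changed members of each list, markers, and the 5 furthest from HP3 and HP4 in each direction. Other genes, and chromosome 8, were chosen after their values were seen. The members and lists were chosen with earlier results of these data known. Promoters were RefSeq windows on GRCm38.p6. Alternatives were other background corrections and scalings, array weights, Cy3 alone, the authors' table, a block and leaving out each array. Some genes are not reported here.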

Additional observations from a re-analysis of the deposited data

How the results depend on the processing

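Counts of probes past both thresholds differed widely between settings. Against EB5, 31 higher and 75 lower became 157 and 446 with the scanner's processed signals, 95 and 201 with a zero normexp offset, 9 and 24 when no background was subtracted, 18 and 82 with median centring, 281 and 320 in the authors' table, and 2543 and 4366 by adjusted p alone. The 57 probes against HP3 became, in that order without median centring, 171, 120, 15, 181 and 4602, and the 77 against HP4 became 674, 313, 43, 634 and 8113, or 280 with median centring. The 16 probes of the reference channel became 115 with a zero offset, 2 when no background was subtracted and 8 with median centring. Leaving out 1 array gave 28 to 33 higher and 73 to 77 lower against EB5, 55 to 63 against HP3, 78 to 87 against HP4, and 12 to 28 in the reference channel, with 28 without EB5 replicate 1. The cause was not tested.

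The Zfp42 probe A_65_P04537 passed without background subtraction (0.19) and was 0.04 to 0.06 with 1 array left out, and A_65_P04151 was 0.05 to 0.09. The chromosome 8 median minus that of the other chromosomes, an alternative added after seeing the data, kept its sign throughout. Against EB5 it was 0.26, and 0.31 with processed signals, a zero offset or the authors' table, 0.13 when no background was subtracted, 0.24 with median centring, 0.28 in Cy3 alone and 0.25 to 0.27 with 1 array left out. Against HP3 it was 0.31, and 0.36 with processed signals or the authors' table, 0.34 with a zero offset, 0.18 when no background was subtracted, 0.27 in Cy3 alone, 0.30 with array weights and 0.29 to 0.31 with 1 array left out. Against HP4 it was 0.28, and 0.34 with each of processed signals, a zero offset and the authors' table, 0.17 when no background was subtracted, 0.33 with median centring, 0.25 in Cy3 alone and 0.27 to 0.29 with 1 array left out. Without chromosome 8 genes, 27 and 74 probes were called against EB5, 52 against HP3 and 72 against HP4.

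Over all settings and named genes, 2911 values were unchanged by the test. They include changes of sign where neither value passed, as for the mesoderm marker Mesp1 (-0.11 to 0.10 over the settings). Of the rest, 116 no longer passed, 24 newly passed and 15 changed sign where at least 1 value passed. In Cy3 alone these were Col1a2 (0.10), Fbxo15 (-0.23), Fgf4 (-0.27), Gas1 (0.06), Hand2 (-0.19), Klhl13 (-0.05), Myc (0.17) and Nanog (-0.11). With processed signals Ddx4 was 0.07 and Rxrg -0.23. In the authors' table Ddx4 was 0.07, Hand2 -0.50, Lhx1 4.15 and Rxrg -0.28, and with median centring Rhox4b was 0.09. Of the list medians 482 stayed within the spread between arrays and 130 moved beyond it.

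Replicate numbers did not pair the arrays, with correlations of -0.02, 0.02 and -0.03 between same-numbered EB5 and RKPG9 arrays, and the fit with the replicate number as a block gave 31 and 75 probes.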
